A study of Mus musculus with 76 samples.

Results

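The cortical hem and medial patterning genes are 10 genes taken by name: the secreted signals Wnt3a, Wnt2b and Wnt8b and the transcription factors Lmx1a, Dmrta1, Dmrta2, Dmrt3, Emx2, Prox1 and Zbtb20. All 10 are among the 14823 genes of the deposited table, and all 10 are among the 14339 genes left after a filter on low counts. They were measured by RNA sequencing in 76 libraries of dorsal forebrain, taken at embryonic day 16 from embryos of C57Bl/6J mice. Each parent received vehicle or α-cypermethrin, a pyrethroid insecticide, over 28 days before mating: 7 days of treatment, followed by 3 rounds of a 2-day pause and 5 treated days. Ctrl (n = 12) had 2 parents given vehicle. In Paternal_0.3Cyp (n = 12) and Paternal_10Cyp (n = 10) the father had the insecticide and the mother vehicle. In Maternal_0.3Cyp (n = 12) and Maternal_10Cyp (n = 8) the mother had it and the father vehicle. In Both_0.3Cyp (n = 12) and Both_10Cyp (n = 10) the pair shared a dose. The doses are labelled 0.3 and 10 without a unit, and the route is not given in the sources used here. The treatment was thus given to the parents and before mating. Every group includes female and male embryos and libraries of batch 1 (34) and batch 2 (42). The labels name no litter, so if littermates resemble each other the p-values are too small.

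The cortical hem is a strip at the medial edge of the embryonic cortex that secretes Wnt and bone morphogenetic proteins. It borders the choroid plexus on one side and the field that becomes the hippocampus on the other, and its Wnt signals drive the growth of that field. Emx2 and the DMRT factors are made by cortical progenitors in a gradient with high levels on the medial side. Prox1 marks granule cells of the dentate gyrus and, outside the medial cortex, migrating interneurons and parts of the diencephalon. Zbtb20 is a repressor that specifies hippocampal pyramidal neurons and is also made by cortical progenitors and glia.

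To show where transcription of these genes begins, 5 of the 11 annotated promoter windows of the 10 genes are printed. Each holds the 250 bases before a start site in RefSeq on GRCm38.p6 (the same coordinates as mm10), 5′ to 3′ on the gene's strand, with matches to the searched motifs in capitals. They are Wnt3a and Wnt8b, a pair of signals that varied together, Dmrta1, which had some of the largest differences, and Prox1 and Zbtb20, which were the genes below Ctrl. At most 1 base of each printed window lies in an exon of the GENCODE annotation, and windows that reach further into exons are not printed.
Wnt3a, chr11:59290752-59291001, minus strand: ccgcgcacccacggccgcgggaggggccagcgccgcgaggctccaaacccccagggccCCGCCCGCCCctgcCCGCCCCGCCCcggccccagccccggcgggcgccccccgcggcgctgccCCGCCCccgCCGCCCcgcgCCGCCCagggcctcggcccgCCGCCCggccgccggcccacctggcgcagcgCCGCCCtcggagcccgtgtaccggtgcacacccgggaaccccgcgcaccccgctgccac
Wnt8b, chr19:44493222-44493471, plus strand: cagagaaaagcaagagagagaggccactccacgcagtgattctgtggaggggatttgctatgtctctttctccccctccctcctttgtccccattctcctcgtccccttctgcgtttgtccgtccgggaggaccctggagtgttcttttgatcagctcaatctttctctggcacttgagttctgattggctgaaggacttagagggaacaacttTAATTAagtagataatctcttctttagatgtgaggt
Dmrta1, chr4:89687948-89688197, plus strand: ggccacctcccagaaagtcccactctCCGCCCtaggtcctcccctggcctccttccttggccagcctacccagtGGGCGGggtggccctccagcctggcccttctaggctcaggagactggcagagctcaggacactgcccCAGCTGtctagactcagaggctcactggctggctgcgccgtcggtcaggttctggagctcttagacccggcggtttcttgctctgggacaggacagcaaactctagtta
Prox1, the first of its start sites, chr1:190170828-190171077, minus strand: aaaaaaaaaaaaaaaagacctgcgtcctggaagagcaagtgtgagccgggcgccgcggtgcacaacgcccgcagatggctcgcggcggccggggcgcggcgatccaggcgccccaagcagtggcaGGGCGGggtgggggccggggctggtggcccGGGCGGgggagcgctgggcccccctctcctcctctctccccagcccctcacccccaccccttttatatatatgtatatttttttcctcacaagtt
Zbtb20, chr16:43247034-43247283, plus strand: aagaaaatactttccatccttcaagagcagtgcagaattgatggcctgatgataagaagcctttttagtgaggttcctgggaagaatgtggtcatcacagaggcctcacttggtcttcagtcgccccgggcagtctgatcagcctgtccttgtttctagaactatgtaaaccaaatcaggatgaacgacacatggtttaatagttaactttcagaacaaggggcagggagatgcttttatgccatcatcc
4 short motifs were searched on both strands, with overlapping matches counted separately. They are GGGCGG (the GC box), CTTTGA (a core of LEF and TCF sites), TAATTA (a core of homeodomain sites) and CAGCTG (an E-box). The GC box stood in 7 of the 11 windows of these genes and in 32.7% of 32851 promoter windows of this length. CTTTGA stood in 0 of 11 windows (13.8% of all windows), TAATTA in 1 (4.84%) and CAGCTG in 1 (13%). The Wnt3a window was 87.6% G and C, with 41 CpG and 9 GC boxes. The Wnt8b window, at 48.4%, held a TAATTA 36 bases before the start and no GC box. The Zbtb20 window held none of the 4 motifs, was 44.8% G and C and had 3 CpG, where the median over all windows was 52.4% and 6 CpG. The RefSeq starts of Dmrta1 and Zbtb20 lie inside the genes as GENCODE draws them. No measurement of these samples bears on a factor's binding at these windows.

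The deposited table held a median of 19.2 M counts a library (17.7 to 41.4 M), and each Both_10Cyp library held 21.2 to 34.0 M. The labelled sex matched the Y-linked genes in 76 of 76 libraries. Summed markers of dorsal forebrain lay between 1240 and 3130 normalised CPM (counts divided by the scaled library total in M). Markers of neighbouring tissue were present too: choroid plexus 41.6 to 1390, ganglionic eminence 755 to 1370 and diencephalon 18.7 to 593. 2 sets of 4 libraries stood apart by more than 3 median absolute deviations. In Ctrl replicate 3, Paternal_0.3Cyp replicates 6 and 9 and Paternal_10Cyp replicate 1, diencephalon markers reached 117 to 593. In Paternal_0.3Cyp replicates 3 and 4 and Both_10Cyp replicates 7 and 8, the ratio of embryonic to adult globin was high, with embryonic globins at 11.1 to 82.6 against at most 1.40 in Ctrl. The ratio also differed between groups as a whole. Its log2 median was -12.8 in Ctrl (-16.1 to -10.2) and lay between -11.4 and -10.3 in the exposed groups. In bulk tissue, more cells of a type and more RNA per cell cannot be told apart.

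Emx2 was the gene that differed from Ctrl in all 6 exposed groups in the main fit, 1.25- to 1.30-fold higher. Dmrta2 rose in 4 groups, by 1.33- to 1.57-fold, and Wnt3a, Dmrta1 and Dmrt3 in 2 groups each, by 1.52- to 1.91-fold. Prox1 fell in Maternal_0.3Cyp (0.796-fold) and Maternal_10Cyp (0.699-fold), and Zbtb20 in Maternal_10Cyp (0.691-fold). In Both_0.3Cyp and Both_10Cyp, whose mothers were exposed as well, neither was called (edgeR adjusted p = 0.0921 and 0.163 for Prox1, 0.175 and 0.452 for Zbtb20). Wnt2b, Wnt8b and Lmx1a passed the test in 0 comparisons by edgeR, by DESeq2 and by limma. Of these 3, Wnt2b and Wnt8b had an unadjusted p under 0.05 in Both_10Cyp (0.0393 and 0.0131). All 6 comparisons use the same 12 Ctrl libraries, and every exposed group overlapped Ctrl in the level of every one of the 10 genes. Each of these calls was also lost when the summed level of radial glia markers entered the fit, as described with the markers below.

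**Figure D1:**
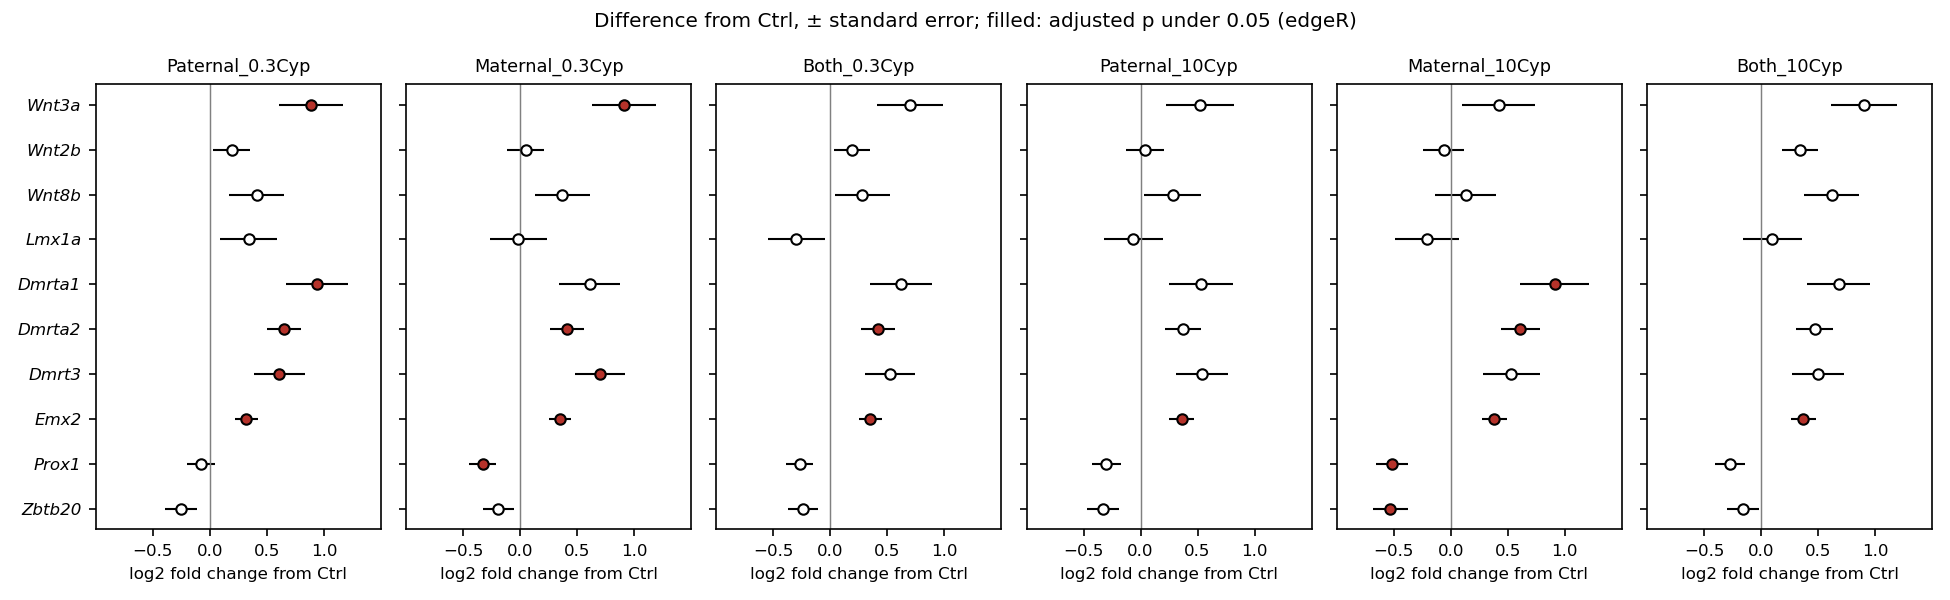
Difference of each exposed group from Ctrl for the 10 genes, with 1 panel per group. The horizontal axis is the log2 fold change with its standard error as a bar, filled points have an edgeR adjusted p under 0.05, and Emx2 is filled in all 6 panels, between 0.32 and 0.38.

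In Paternal_0.3Cyp 5 of the 10 genes were called, 5 higher and 0 lower, where 27.6% of all genes tested were called (15.4% higher and 12.2% lower). In Maternal_0.3Cyp 5 were called, 4 higher and 1 lower, beside 23.7% of all genes (10.9% and 12.8%). These shares were above the background, in the direction of higher levels. The 10 genes were chosen with earlier results of these data known, and several of them vary together. Their shares beside the background are therefore a description, here and in the other groups. In Both_0.3Cyp 2 were called, 2 higher and 0 lower, beside 22.3% (10.5% and 11.8%), and in Paternal_10Cyp 1, higher, beside 21.5% (10.7% and 10.8%). Counted in either direction both shares were below the background, while the share called higher was above it in Both_0.3Cyp and near it in Paternal_10Cyp. In Maternal_10Cyp 5 were called, 3 higher and 2 lower, beside 40.8% (20.4% and 20.4%), near the background. In Both_10Cyp 1 was called, higher, beside 3.91% (2.34% and 1.58%). Fitted to the compared groups alone, edgeR called 0 of the 10 genes in Paternal_0.3Cyp (adjusted p = 0.0845 to 0.202 for the 5), 6 in Both_0.3Cyp, 2 in Paternal_10Cyp and 0 in Both_10Cyp. The median log2 fold change of the 10 genes was 0.38, 0.36, 0.31, 0.32, 0.26 and 0.42 in that order of groups, where the median of all genes lay between -0.013 and 0.011. In a joint test of any exposed group against Ctrl 3 of the 10 were called, beside 21.7% of all genes: Dmrta2 (adjusted p = 0.0243), Prox1 (0.0390) and Emx2 (0.0434). That joint count was 0 without any 1 of Ctrl replicates 3, 7 and 8, and 1 without Ctrl replicate 9 or 12 or Maternal_10Cyp replicate 1 or 8. Without Ctrl replicate 5 or 6 more of the 10 genes were called, 5 and 5 in Both_0.3Cyp, 3 and 4 in Paternal_10Cyp and 3 and 4 in Both_10Cyp, and the libraries whose removal ends a call are named with each gene.

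Compared per kilobase of the longest coding transcript in Ctrl, Dmrta2 had the highest level of the 10 genes, 11.6 ± 3.16 CPM per kb (SD, n = 12), and Emx2 followed with 7.81 ± 1.51. Zbtb20 (4.31 ± 0.711) and Prox1 (3.58 ± 0.876) came next, then Dmrt3 with 1.78 ± 0.864. Wnt2b (0.810 ± 0.188), Wnt8b (0.808 ± 0.272) and Lmx1a (0.695 ± 0.404) had similar levels, and Wnt3a (0.286 ± 0.136) and Dmrta1 (0.221 ± 0.127) the lowest. Neighbours in this order overlapped in range except Emx2 and Zbtb20, whose order turns with the transcript length: at the median length of its 12 coding transcripts Zbtb20 had 140 CPM per kb. The hem signals were thus near the lower end of what was counted, and Wnt3a had 1 to 70 counts in a library.

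Wnt3a (ENSMUSG00000009900; chromosome 11, 59248033 to 59290752, minus strand) encodes the canonical Wnt signal that is largely confined to the hem in this tissue and is needed for the hippocampus to form. In Ctrl its lowest, median and highest levels were 0.215, 0.738 and 1.57 normalised CPM. At dose 0.3 they were 0.296, 1.38 and 2.70 with an exposed father, 0.793, 1.56 and 2.18 with an exposed mother, and 0.515, 1.37 and 2.24 with both. At dose 10 they were 0.488, 1.22 and 1.69 in Paternal_10Cyp, 0.321, 1.07 and 1.78 in Maternal_10Cyp, and 0.0423, 1.29 and 3.25 in Both_10Cyp. Every exposed median lay above the Ctrl median, and 12 of 12 Maternal_0.3Cyp libraries lay above the Ctrl mean, while each group overlapped Ctrl. The log2 fold change was 0.89 ± 0.28 in Paternal_0.3Cyp (SE; edgeR adjusted p = 0.0161) and 0.91 ± 0.28 in Maternal_0.3Cyp (0.0168), which were rises. It was 0.70 ± 0.29 in Both_0.3Cyp (0.0648) and 0.90 ± 0.29 in Both_10Cyp (0.0562), which missed the threshold by edgeR. Paternal_10Cyp and Maternal_10Cyp had 0.52 ± 0.30 (0.190) and 0.42 ± 0.32 (0.301). The spread was wide at these counts: Both_10Cyp held the lowest library of all, with 1 count, and the highest. The rise in Paternal_0.3Cyp was not called without the libraries high in the globin ratio (0.69, adjusted p = 0.0777). By limma, Both_0.3Cyp was called (0.80, 0.0251) and Paternal_0.3Cyp was not (0.80, 0.0538).

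Wnt2b and Wnt8b are the other Wnt genes of the hem, and Wnt8b extends into the medial cortex beside it. Wnt8b (ENSMUSG00000036961; chromosome 19, 44493472 to 44514273, plus strand) had 1.18, 2.80 and 4.36 normalised CPM in Ctrl (lowest, median, highest), 1.62, 3.37 and 8.72 in Paternal_0.3Cyp, and 0.847, 3.71 and 7.90 in Both_10Cyp. The other 4 groups had medians of 3.11 to 3.57. The 3 highest libraries were replicate 4 of Paternal_0.3Cyp (8.72) and replicates 7 and 8 of Both_10Cyp (7.90 and 7.75), all of them high in the globin ratio, and the next were replicates 5 and 8 of Maternal_0.3Cyp (6.14 and 5.19), which are not. Its largest difference was 0.62 ± 0.24 in Both_10Cyp (edgeR adjusted p = 0.0976), and 0.26 without the libraries high in the globin ratio. Wnt2b (ENSMUSG00000027840; chromosome 3, 104945272 to 104961921, minus strand) had a median of 2.80 in Ctrl and of 2.52 to 3.32 in the exposed groups, and Ctrl (1.61 to 3.61) lay inside the range of the exposed libraries (1.16 to 5.89). Its differences ran from -0.063 in Maternal_10Cyp to 0.34 ± 0.16 in Both_10Cyp (adjusted p = 0.158). The 95% intervals for Wnt2b in Maternal_0.3Cyp, -0.27 to 0.36, and in Maternal_10Cyp, -0.42 to 0.29, leave room for changes of either sign.

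Lmx1a (ENSMUSG00000026686; chromosome 1, 167689237 to 167848741, plus strand) encodes a LIM homeodomain factor that specifies the hem and is also made by the choroid plexus. It had 1.13, 1.68 and 5.81 normalised CPM in Ctrl and medians of 1.86 to 2.58 in the exposed groups. The 2 highest libraries were Paternal_0.3Cyp replicate 9 (7.84) and Ctrl replicate 3 (5.81), which are 2 of the 4 libraries high in diencephalon markers. Log2 fold changes had mixed signs, from -0.30 ± 0.25 in Both_0.3Cyp (edgeR adjusted p = 0.401) to 0.34 ± 0.25 in Paternal_0.3Cyp (0.298). The signs depended in part on Ctrl replicate 3. Without it the values were 0.2 in Maternal_0.3Cyp, 0.18 in Paternal_10Cyp and 0.035 in Maternal_10Cyp, none of them called. Both_0.3Cyp stayed below Ctrl with any 1 library left out (-0.37 to -0.062). The interval for Maternal_0.3Cyp, -0.51 to 0.48, spans changes of a size that other genes of the group had.

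Dmrta2 (ENSMUSG00000047143; chromosome 4, 109978053 to 109983687, plus strand), also known as Dmrt5, encodes a zinc finger factor that cortical progenitors need for the hem and the medial cortex to form. In Ctrl it had 24.0, 31.6 and 52.7 normalised CPM (lowest, median, highest). At dose 0.3 it had 23.0, 46.6 and 121 in Paternal_0.3Cyp, 33.3, 45.6 and 50.3 in Maternal_0.3Cyp, and 39.8, 45.7 and 51.8 in Both_0.3Cyp. At dose 10 it had 30.6, 45.1 and 54.3 in Paternal_10Cyp, 46.7, 50.5 and 64.8 in Maternal_10Cyp, and 30.1, 43.3 and 86.1 in Both_10Cyp. The 12 Both_0.3Cyp libraries and the 8 Maternal_10Cyp libraries all lay above the Ctrl mean of 33.9, yet each range overlapped the upper Ctrl libraries. Dmrta2 rose in Paternal_0.3Cyp (0.65 ± 0.15, edgeR adjusted p = 0.00327), Maternal_0.3Cyp (0.41 ± 0.15, 0.0389), Both_0.3Cyp (0.42 ± 0.15, 0.0359) and Maternal_10Cyp (0.61 ± 0.17, 0.00269). Paternal_10Cyp (0.37 ± 0.16, 0.0774) and Both_10Cyp (0.47 ± 0.16, 0.0623) missed the threshold, while DESeq2 called Both_10Cyp (0.0388). The spread between libraries differed strongly: the coefficient of variation was 7.94% in Both_0.3Cyp, 27.2% in Ctrl, 40.2% in Both_10Cyp and 47.4% in Paternal_0.3Cyp. The 4 libraries high in the globin ratio had the 4 highest levels of all 76 (72.5 to 121). Without them the values were 0.41 in Paternal_0.3Cyp (adjusted p = 0.0181) and 0.17 in Both_10Cyp. The call in Maternal_0.3Cyp was lost (0.37 to 0.41, adjusted p = 0.0505 to 0.0788) without any 1 of Ctrl replicates 1, 3, 4, 7, 8, 9 and 12 or Maternal_0.3Cyp replicates 1, 2, 5, 6, 7 and 12. That in Both_0.3Cyp was lost (0.38 to 0.41, 0.0518 to 0.0708) without any 1 of Ctrl replicates 1, 3, 7 and 8 or Both_0.3Cyp replicate 7.

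Dmrta1 and Dmrt3 belong to the same family and are made by the same progenitors. Dmrta1 (ENSMUSG00000043753; chromosome 4, 89679436 to 89694772, plus strand) had 0.364, 0.755 and 2.26 normalised CPM in Ctrl, 0.493, 1.24 and 6.34 in Paternal_0.3Cyp, and 1.11, 1.73 and 2.36 in Maternal_10Cyp. Each of the 8 Maternal_10Cyp libraries lay above the Ctrl mean of 0.900, whereas the wide range of Paternal_0.3Cyp ran from inside Ctrl to far above it. Dmrta1 rose by 0.94 ± 0.27 in Paternal_0.3Cyp (edgeR adjusted p = 0.00948) and by 0.91 ± 0.30 in Maternal_10Cyp (0.0110). The other groups had medians of 1.25 to 1.43 and differences of 0.53 to 0.68 (adjusted p = 0.0857 to 0.164). The call in Paternal_0.3Cyp rested on replicate 4, the highest library, without which the value was 0.63 (0.0657). It was 0.41 (0.204) without both libraries of that group high in the globin ratio.

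Dmrt3 (ENSMUSG00000042372; chromosome 19, 25610301 to 25623921, plus strand) had 2.21, 3.36 and 8.0 normalised CPM in Ctrl, 1.13, 5.91 and 18.2 in Paternal_0.3Cyp, and 4.02, 7.09 and 9.52 in Maternal_0.3Cyp. The other 4 groups had medians of 4.98 to 6.11. All 12 Maternal_0.3Cyp libraries lay above the Ctrl median but 5 Ctrl libraries lay above the Ctrl mean and inside the exposed range. Dmrt3 rose by 0.61 ± 0.22 in Paternal_0.3Cyp (edgeR adjusted p = 0.0349) and by 0.70 ± 0.22 in Maternal_0.3Cyp (0.0199), and the other 4 groups had 0.50 to 0.54 (0.0754 to 0.145). The call in Paternal_0.3Cyp was lost (0.39 to 0.58, 0.0526 to 0.171) without any 1 of Ctrl replicates 1, 3, 4, 7, 10 and 12 or Paternal_0.3Cyp replicates 3, 4, 5 and 8. The value was 0.31 (0.262) without the libraries high in the globin ratio.

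Emx2 (ENSMUSG00000043969; chromosome 19, 59458372 to 59465357, plus strand) encodes a homeodomain factor that sets the size of the medial and posterior cortical areas and of the hippocampus. In Ctrl it had 16.9, 22.3 and 31.4 normalised CPM (lowest, median, highest). At dose 0.3 it had 16.7, 27.0 and 52.2 in Paternal_0.3Cyp, 24.0, 28.9 and 33.8 in Maternal_0.3Cyp, and 25.3, 28.7 and 34.7 in Both_0.3Cyp. At dose 10 it had 25.7, 29.2 and 33.5 in Paternal_10Cyp, 25.5, 30 and 32.9 in Maternal_10Cyp, and 19.7, 27.7 and 44.0 in Both_10Cyp. Above the Ctrl mean of 22.8 ± 4.42 (SD, n = 12) lay 12 of 12 libraries of Maternal_0.3Cyp, 12 of 12 of Both_0.3Cyp, 10 of 10 of Paternal_10Cyp and 8 of 8 of Maternal_10Cyp. The counts were 9 of 12 in Paternal_0.3Cyp and 9 of 10 in Both_10Cyp. Ctrl itself reached into the exposed range, with 4 of 12 libraries above its mean. The log2 fold changes, in the order of the groups above, were 0.32 ± 0.10, 0.35 ± 0.10, 0.35 ± 0.10, 0.36 ± 0.11, 0.38 ± 0.11 and 0.37 ± 0.11 (SE), with edgeR adjusted p of 0.0177, 0.0136, 0.0149, 0.0165, 0.00656 and 0.0406. These differences were close to each other in size, and Emx2 was called in none of the 5 comparisons between exposed groups, where its differences lay between 0.020 and 0.038. The call in Paternal_0.3Cyp was lost without replicate 4 (0.22, adjusted p = 0.0816) and with the compared groups alone. It was also lost without the libraries high in the globin ratio. That in Both_10Cyp was lost (0.28 to 0.38, 0.0502 to 0.163) without any 1 of Ctrl replicates 3, 7, 8, 9, 10 and 12 or Both_10Cyp replicates 7, 8 and 9, and fell to 0.18 (0.485) without replicates 7 and 8 together. The antisense gene Emx2os overlaps Emx2 and has no row in the table used here, so its reads cannot be told apart if strand was not used in counting.

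Prox1 (ENSMUSG00000010175; chromosome 1, 190118035 to 190170714, minus strand), a homeobox factor of dentate granule cells and interneurons, lay on the other side of Ctrl. It had 18.7, 28.1 and 42.8 normalised CPM in Ctrl, 16.7, 21.9 and 32.3 in Maternal_0.3Cyp, and 13, 19.3 and 26.2 in Maternal_10Cyp. 11 of 12 Maternal_0.3Cyp libraries and 8 of 8 Maternal_10Cyp libraries were below the Ctrl mean of 28.3, within overlapping ranges. Prox1 fell by 0.33 ± 0.12 in Maternal_0.3Cyp (log2 fold change, edgeR adjusted p = 0.0434) and by 0.52 ± 0.14 in Maternal_10Cyp (0.00266). The medians of the other 4 groups were 22.4 to 27.2, and their log2 fold changes lay between -0.30 and -0.079 (adjusted p = 0.0834 to 0.656). The call in Maternal_0.3Cyp was lost (-0.34 to -0.26, 0.0509 to 0.128) without any 1 of Ctrl replicates 2, 3, 7, 8, 9 and 12 or Maternal_0.3Cyp replicates 1, 2, 4, 5, 6, 7, 10 and 12. It was also lost with the replicate number as a block (-0.28, 0.0684), and without those libraries whose diencephalon markers were high (-0.27, 0.0777). The highest Prox1 levels of all libraries were in 2 of those libraries, Paternal_0.3Cyp replicate 9 (47.6) and Ctrl replicate 3 (42.8).

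Zbtb20 (ENSMUSG00000022708; chromosome 16, 42875881 to 43642602, plus strand) had 74.0, 116 and 142 normalised CPM in Ctrl and 50.3, 82.8 and 105 in Maternal_10Cyp. Each of the 8 Maternal_10Cyp libraries lay below the Ctrl mean, and the highest of them reached into the lower Ctrl libraries. Zbtb20 fell by 0.53 ± 0.15 in Maternal_10Cyp (log2 fold change, edgeR adjusted p = 0.00449), a call that held in 20 of 20 fits with 1 library left out, as did those of Prox1, Emx2, Dmrta1 and Dmrta2 in that group. The other 5 groups had medians of 91.4 to 110 and log2 fold changes between -0.33 and -0.16 (adjusted p = 0.0808 to 0.452). Its long gene holds several annotated antisense genes and pseudogenes that have no row in the table used here.

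**Figure D2:**
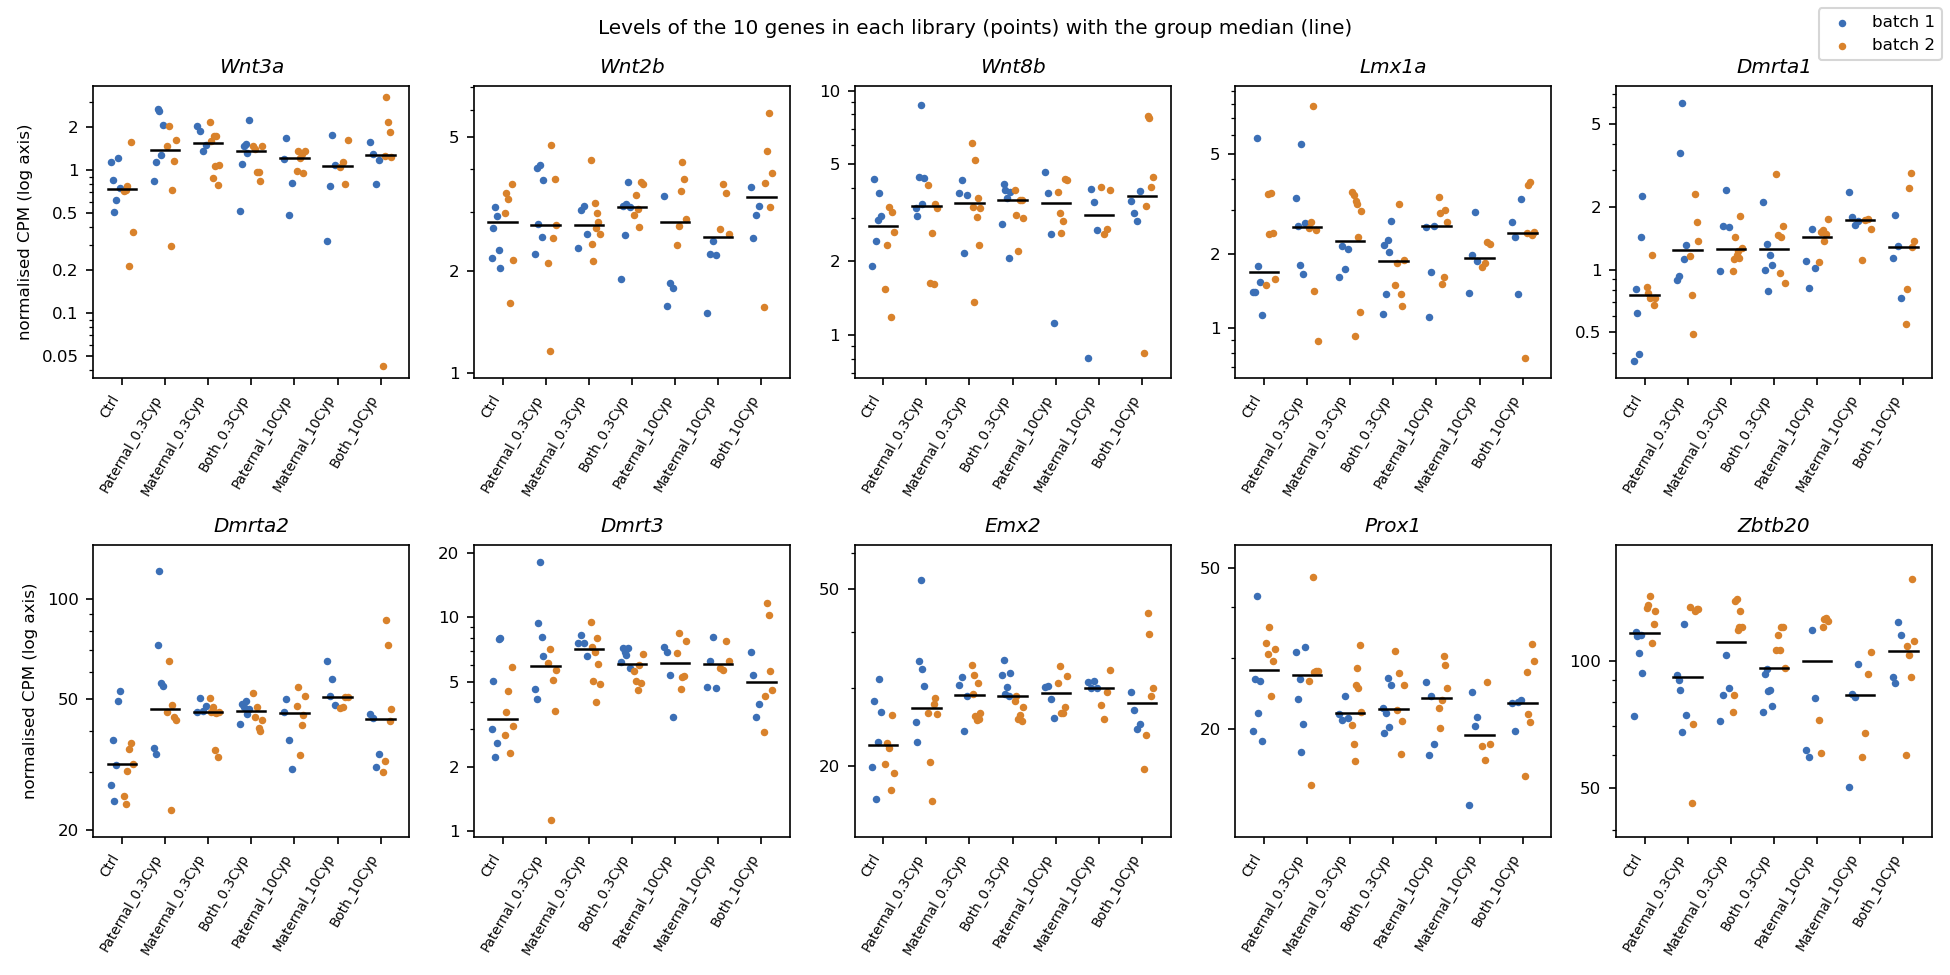
Normalised CPM of the 10 genes in each of the 76 libraries, on log axes, by group and coloured by batch, with the group median as a line. Maternal_10Cyp points of Dmrta2 start at 46.7, above the Ctrl median of 31.6, and single libraries of Paternal_0.3Cyp reach 121.

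The dose, the parent and the combination of parents were compared next. None of the 10 genes was called between dose 10 and dose 0.3, for fathers, mothers or both, where 0.0628%, 0% and 0.00697% of all genes were called by edgeR. At an unadjusted p under 0.05 the counts were 0, 1 and 0, the 1 being Zbtb20 in embryos of exposed mothers (-0.34 ± 0.15, adjusted p = 0.537). None was called between mothers and fathers at dose 0.3 (0.00697% of all genes) or dose 10 (0%), with Prox1 at dose 0.3 the 1 gene with an unadjusted p under 0.05 (-0.25, adjusted p = 1). Intervals stayed wide: for Dmrta2 the difference between mothers and fathers at dose 10 was 0.24, with a 95% interval of -0.098 to 0.58. Between males and females 0 were called (0.0907% of all genes, 0.0418% higher and 0.0488% lower in males), and Dmrta1, at -0.34 ± 0.15 in males against females, was the 1 gene with an unadjusted p under 0.05 (adjusted p = 0.933). By DESeq2 and limma the counts of these 6 comparisons were 0 as well.

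The effect of both parents was set against the sum of the effects of each, as both minus mother minus father plus Ctrl. At dose 10 this departure was called for 2 of the 10 genes, 2 higher and 0 lower, beside 27.2% of all genes (14% higher and 13.3% lower). They were Zbtb20 (0.70 ± 0.21, edgeR adjusted p = 0.0126) and Prox1 (0.55 ± 0.19, 0.0292), whose levels in Both_10Cyp were nearer to Ctrl than the sum of the effects of each parent alone. Emx2 (-0.37 ± 0.16, 0.0741) and Dmrta2 (-0.52 ± 0.23, 0.0882) had departures below 0 that missed the threshold. At dose 0.3 edgeR called 0 of the 10 genes and 0% of all genes, with 5 of the 10 at an unadjusted p under 0.05: Wnt3a (-1.11 ± 0.39, adjusted p = 0.0933), Dmrta1 (-0.93, 0.124), Dmrt3 (-0.79, 0.119), Dmrta2 (-0.64 ± 0.21, 0.0843) and Emx2 (-0.33, 0.156). All 5 were negative, so the value with both parents exposed was below the sum of the single exposures. The same Ctrl libraries enter each of these effects. At either dose, a difference from Ctrl that all exposed groups share gives a departure of the opposite sign by itself. Such a shared difference and parents acting together cannot be told apart here. Limma called 2 of the 10 at dose 0.3 and 6 at dose 10, and DESeq2 0 and 2. The count at dose 0.3 was 1 without Ctrl replicate 6 or Paternal_0.3Cyp replicate 2 and 3 without Paternal_0.3Cyp replicate 9. The count at dose 10 was 1 with the replicate number as a block. It was also 1 without any 1 of Ctrl replicate 3, Maternal_10Cyp replicates 1, 5, 6 and 8, Paternal_10Cyp replicates 2 and 6 or Both_10Cyp replicates 9 and 10, and 4 without Both_10Cyp replicate 7 or 8.

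Within the batches the 19 calls kept their sign in each, when group means were fitted per batch in the same model. Emx2 had log2 fold changes in batch 1 and batch 2 of 0.44 and 0.18 in Paternal_0.3Cyp, 0.25 and 0.42 in Maternal_0.3Cyp, and 0.36 and 0.33 in Both_0.3Cyp. At dose 10 they were 0.23 and 0.45 for fathers, 0.33 and 0.43 for mothers, and 0.12 and 0.54 for both. Dmrta2 had 0.74 and 0.54 in Paternal_0.3Cyp and 0.57 and 0.66 in Maternal_10Cyp. Wnt3a had 1.03 and 0.72 in Paternal_0.3Cyp and 0.99 and 0.91 in Maternal_0.3Cyp. In Maternal_10Cyp, Prox1 had -0.40 and -0.64 and Zbtb20 -0.40 and -0.68. Called within batch 2 were Emx2 in Maternal_0.3Cyp, Paternal_10Cyp, Maternal_10Cyp and Both_10Cyp (edgeR adjusted p = 0.0205, 0.0188, 0.0280 and 0.00911), and Dmrt3 in Maternal_0.3Cyp (0.0483). Dmrta2, Prox1 and Zbtb20 were called there in Maternal_10Cyp (0.0212, 0.0140 and 0.0157). Batch 2 also gave 4 calls that the 2 batches together did not: Dmrta2 in Paternal_10Cyp (0.0470) and, in Both_10Cyp, Wnt3a (0.0366), Wnt8b (0.0294) and Dmrta2 (0.0116). Batch 2 holds Both_10Cyp replicates 7 and 8, the libraries of that group high in the globin ratio. Within batch 1 none of the 19 was called, where edgeR called at most 19 genes of the table in any group. The test of batch by exposure over all groups called 0 of the 10 genes, 0 of them at an unadjusted p under 0.05, and 0% of all genes. Of the single-group terms, 2 had an unadjusted p under 0.05, both in Both_10Cyp, where the difference from Ctrl was larger in batch 2 by 0.71 for Dmrta2 (p = 0.024, edgeR adjusted p = 0.363) and by 0.42 for Emx2 (0.048, 0.407).

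Across the 76 libraries, after removal of group, batch and sex, Dmrta2, Dmrt3 and Emx2 varied together. Pearson's r was 0.85 for Dmrta2 with Dmrt3 (Spearman's rho 0.72), 0.82 for Dmrt3 with Emx2 (0.71) and 0.81 for Dmrta2 with Emx2 (0.69). Each had a permutation p of 1e-05 for r, the smallest that 100000 permutations can give, and an adjusted p of 4e-05 over 105 relations. Without the 2 libraries farthest from the median they were 0.80, 0.76 and 0.74, and within batch 1 and batch 2 they were 0.90 and 0.80, 0.86 and 0.78, and 0.89 and 0.74. Among the signals, Wnt3a followed Wnt8b (r 0.67, rho 0.56, 0.62 without 2 libraries, 0.61 and 0.71 in the batches), with the same permutation p. Wnt3a also followed Dmrt3 (r 0.67, rho 0.69, 0.64 without 2 libraries, 0.57 and 0.74 in the batches), again with that p. Prox1 and Zbtb20, the genes that fell, had r 0.44 with each other (rho 0.35, permutation p = 0.00013 for r, adjusted p = 0.00041), 0.46 without 2 libraries and 0.41 and 0.45 in the batches. Prox1 ran against Dmrta2 (r -0.41, rho -0.27, adjusted permutation p = 0.00064 for r), and that value was -0.27 without 2 libraries and -0.41 and -0.42 in the batches. These values share library composition, since each library gives all 10 levels.

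**Figure D3:**
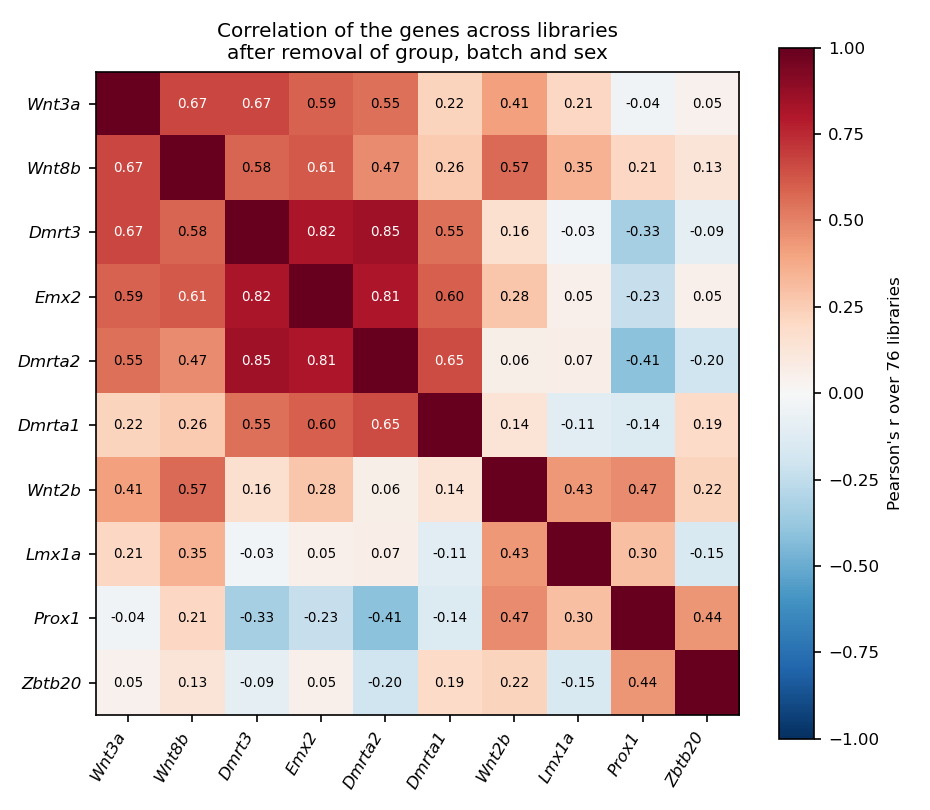
Pearson's r between the 10 genes over 76 libraries after removal of group, batch and sex, printed in each cell and coloured from -1 to 1. Dmrta2, Dmrt3 and Emx2 form the block with r of 0.81 to 0.85, and Prox1 has its highest r with Wnt2b and Zbtb20.

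The genes of the whole table with the highest r to each called gene were listed, 3 apiece, over the same 76 libraries and as a description. For Wnt3a they were Rspo1 (0.73), a secreted enhancer of Wnt signalling, Neurod4 (0.64) and the Wnt receptor Fzd9 (0.60). Those for Dmrta2 were Tcf3 (0.94), Tgif2 (0.93) and Rhbdl3 (0.93), for Dmrt3 Lhx2 (0.86), a cortical selector factor, Serinc2 (0.84) and Sstr2 (0.84), and for Emx2 Nhlh1 (0.86), Limd1 (0.85) and Ezr (0.84). Dmrta1 had Blm (0.83), Uhrf1 (0.80) and Clspn (0.80), genes of DNA replication and repair. Prox1 had Snx30 (0.73), Rnf152 (0.73) and Pak3 (0.72), and those of Zbtb20 included Bptf and Apc (0.86 each).

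Markers of cell types moved with the groups. Of the marker sums for cell types and tissues, only those of radial glia and choroid plexus were entered as a term in the fit. Those of dividing cells, diencephalon and Cajal-Retzius cells were not, and the part of dividing cells in the differences from Ctrl was not tested. Summed dividing cell markers (12 genes, with 7 to 10 called higher in each group but Both_10Cyp, where 1 was) had 532, 637 and 1020 normalised CPM in Ctrl. Their medians were 770 to 920 in the exposed groups, whose libraries ran from 568 to 1530. Summed radial glia markers (9 genes) had 1240, 1340 and 1600 in Ctrl and medians of 1460 to 1580 in the exposed groups. Of these 9, the numbers higher and lower were 5 and 1 in Paternal_0.3Cyp, 4 and 1 in Maternal_0.3Cyp, 4 and 1 in Both_0.3Cyp, 2 and 0 in Paternal_10Cyp, 6 and 1 in Maternal_10Cyp and 0 and 0 in Both_10Cyp. The shares of all genes higher and lower were, in the same order, 15.4% and 12.2%, 10.9% and 12.8%, 10.5% and 11.8%, 10.7% and 10.8%, 20.4% and 20.4%, and 2.34% and 1.58%. The radial glia shares higher were thus above the background in 5 groups, and those lower were below it in all 6. Vim, a filament protein of radial glia, rose in 4 groups (0.43, 0.35, 0.31 and 0.36 in Paternal_0.3Cyp, Maternal_0.3Cyp, Both_0.3Cyp and Maternal_10Cyp), and Slc1a3, a glutamate transporter, fell in the same 4. Dmrta2 followed the dividing cell sum with r 0.90 (rho 0.75, 0.87 without 2 libraries, 0.95 and 0.85 in the batches) and the radial glia sum with r 0.85 (rho 0.79, 0.85 without 2, 0.89 and 0.81), each with a permutation p of 1e-05 and an adjusted p of 4e-05. Emx2 followed the dividing cell sum with r 0.75 (rho 0.59, 0.67 without 2, 0.82 and 0.69), with the same permutation p. The 4 libraries high in the globin ratio had the 4 highest dividing cell sums, 1180 to 1530. Over all libraries the log2 globin ratio had r 0.73 with Dmrta2, 0.63 with Emx2, 0.61 with Dmrt3 and 0.59 with Dmrta1. Without 2 libraries these were 0.62, 0.47, 0.49 and 0.46.

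With the summed radial glia level as a covariate, an alternative chosen after seeing the data, edgeR called 0 of the 10 genes in each of the 6 groups. In Maternal_10Cyp the values were then 0.11 for Dmrta2 (adjusted p = 0.592), 0.10 for Emx2, 0.32 for Dmrta1, -0.26 for Prox1 (0.291) and -0.31 for Zbtb20 (0.275). In Paternal_0.3Cyp they were 0.37 for Wnt3a, 0.30 for Dmrta1, 0.12 for Dmrta2, 0.061 for Emx2 and -0.013 for Dmrt3. With 2 surrogate variables the counts in the 6 groups were 1, 0, 0, 1, 3 and 0. With the log2 globin ratio as a covariate they were 0, 0, 0, 1, 3 and 0, and Dmrta2 (0.30, 0.0430), Prox1 (-0.45, 0.0171) and Zbtb20 (-0.45, 0.0299) were still called in Maternal_10Cyp. A covariate that itself differs between the groups takes up part of a group difference whatever its source.

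Lmx1a followed the choroid plexus sum (r 0.60, rho 0.63, 0.57 without 2 libraries, 0.51 and 0.66 in the batches; permutation p = 1e-05, adjusted 4e-05). Prox1 followed the diencephalon sum (r 0.53, rho 0.49, 0.35 without 2 libraries, 0.57 and 0.50 in the batches, permutation p = 2e-05, adjusted 7.2e-05). Prox1 also ran against the radial glia sum (r -0.48, rho -0.33, -0.34 without 2 libraries, adjusted permutation p = 4e-05 for r). So did Zbtb20 (r -0.40, rho -0.34, -0.25 without 2 libraries, adjusted permutation p = 0.0011 for r). Zbtb20 followed the Cajal-Retzius sum (r 0.45, rho 0.43, 0.51 without 2 libraries, 0.51 and 0.41 in the batches; permutation p = 5e-05, adjusted 0.00016). Cajal-Retzius cells leave the hem early and secrete reelin. Those sums were 187, 284 and 400 in Ctrl and 146, 214 and 256 in Maternal_10Cyp, where 0 of 9 Cajal-Retzius markers rose and 2 fell, near the share of all genes lower (20.4%). Reln, the most abundant of the 9, fell by 0.70 (log2 fold change, edgeR adjusted p = 0.00278), while Trp73 had 0.023 (0.906), Nhlh2 0.087 (0.572) and Calb2 -0.15, none of them called. Diencephalon markers were higher in Paternal_0.3Cyp for 9 of 13 genes tested, with replicate 9 at 593 where the median was 37.9, and choroid plexus markers were called higher for 1 of 15 in Paternal_0.3Cyp and in Paternal_10Cyp and lower for 1 in Maternal_0.3Cyp. The part of these tissues in the differences of Prox1, Lmx1a and Zbtb20 was not tested beyond the settings given with them.

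**Figure D4:**
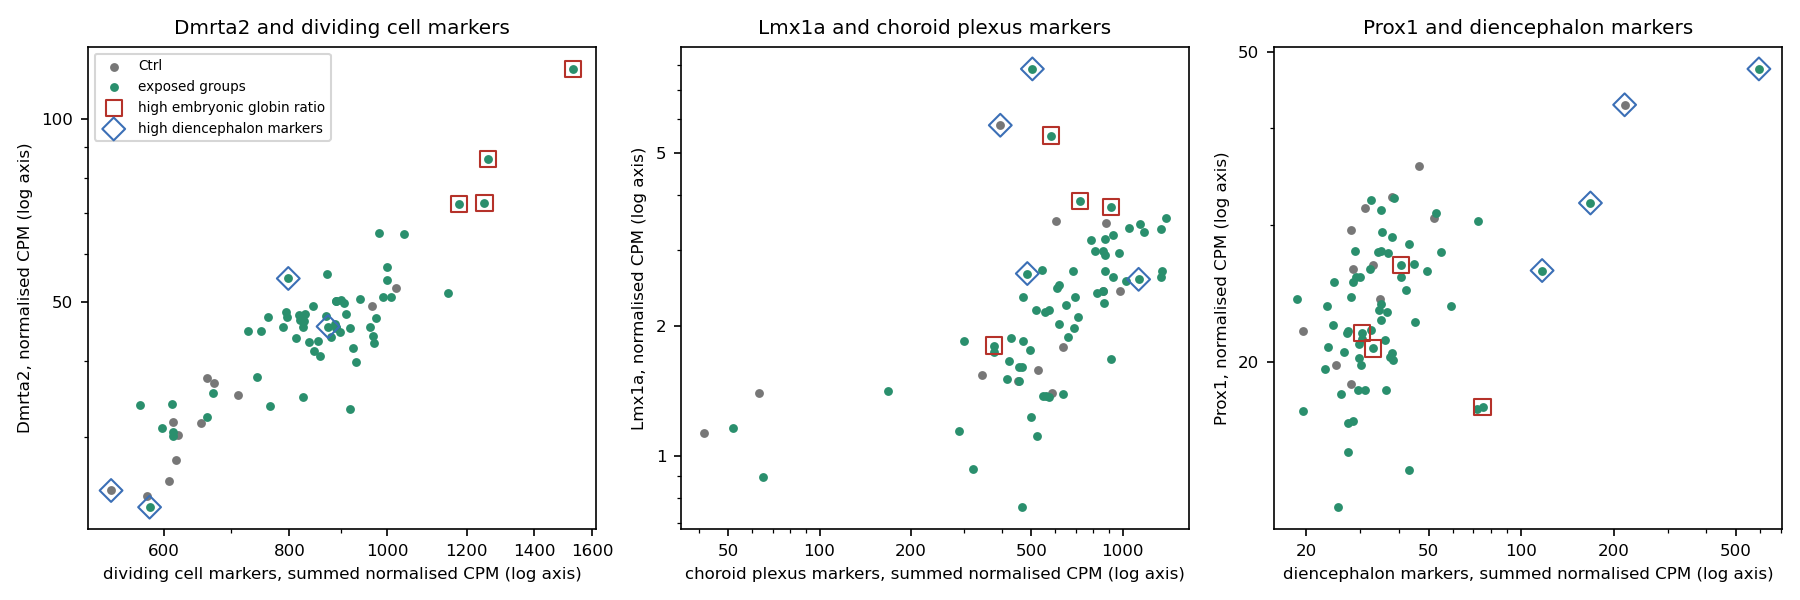
Level of Dmrta2, Lmx1a and Prox1 in each library against the summed markers of dividing cells, choroid plexus and diencephalon, on log axes in normalised CPM, with Ctrl in grey and exposed groups in green. Squares (libraries high in the globin ratio) hold the highest Dmrta2 levels, 72.5 to 121, and diamonds (libraries high in diencephalon markers) hold the highest Prox1 levels, 42.8 and 47.6.

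The other genes of the Wnt pathway were taken as whole lists. These lists and the lists after them were tested in the main fit only, with no library left out. Paternal_0.3Cyp includes replicates 6 and 9, high in diencephalon markers, and replicates 3 and 4, high in the globin ratio. Their part in the list counts of that group was not tested. Counts are read against the shares of all genes higher and lower in the same group (15.4% and 12.2% in Paternal_0.3Cyp, 20.4% each in Maternal_10Cyp). Of the 10 other Wnt ligands tested, 0 were called in 5 groups by edgeR and 1 rose in Maternal_10Cyp, Wnt7b (0.29, adjusted p = 0.0236), a signal of cortical neurons. Of 18 receptors, 7 rose in Paternal_0.3Cyp, a share above that background, among them Fzd10 (0.88, 0.0154), a hem receptor, Fzd2 (0.37, 0.0223) and Fzd9 (0.28, 0.0316). In the other groups 1, 0, 1, 3 and 0 receptors rose and 0, 0, 0, 2 and 0 fell, shares below the background of each group. Ryk, a Wnt co-receptor, rose in 4 groups by 0.15 to 0.16. Of 18 secreted factors and modulators, 1, 2, 2, 2, 3 and 0 rose and 2, 2, 2, 1, 4 and 0 fell. The order of groups is that used above, and these shares were near or below the background of each group. Notum is an enzyme that inactivates Wnt proteins and is itself induced by Wnt signalling. It fell in Paternal_0.3Cyp (-0.70, 0.0272), Maternal_0.3Cyp (-0.76, 0.0201) and Maternal_10Cyp (-1.14, 0.00143). Notum had a mean of 1.11 CPM and Fzd10 of 2.87 CPM, so both rest on few counts. Dkk3 fell in 5 groups by 0.24 to 0.40.

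Of 12 genes that Wnt signalling induces, 5 rose and 1 fell in Paternal_0.3Cyp, including Lef1 (0.55, edgeR adjusted p = 0.00506) and Sp5 (0.64, 0.0123), and 3 rose and 2 fell in Maternal_0.3Cyp (10.9% and 12.8% of all genes). In Maternal_10Cyp 0 rose and 3 fell, the latter near the 20.4% of all genes lower, among them Notum and Znrf3 (-0.21, 0.0162), and in Both_10Cyp 0 were called. The median log2 fold change of the 12 was 0.18, 0.17, 0.029, -0.00083, -0.11 and 0.15 in the order of groups used above, beside medians of all genes near 0. Among 14 transducers Apc, a subunit of the complex that degrades beta-catenin, fell in 5 groups by 0.25 to 0.44. The bone morphogenetic protein pathway is the other signal of the hem. Of its 16 genes 0, 0, 0, 1, 1 and 0 rose and 0, 1, 2, 0, 3 and 0 fell in that order of groups. These shares were near or below the background of each group. Smad7, an inhibitor, was lower in Maternal_0.3Cyp, Both_0.3Cyp and Maternal_10Cyp by 0.22 to 0.26.

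Of 11 other medial pallium and hippocampal genes, 4 rose and 0 fell in Paternal_0.3Cyp, 0 rose and 1 fell in Maternal_0.3Cyp, 1 rose and 1 fell in Paternal_10Cyp and 2 rose and 2 fell in Maternal_10Cyp, with 0 called in Both_0.3Cyp and Both_10Cyp. The 4 in Paternal_0.3Cyp were above the 15.4% of all genes higher, while the counts in Paternal_10Cyp (10.7% and 10.8%) and Maternal_10Cyp (20.4% each) were near the background. Emx1, the paralogue of Emx2 made throughout the dorsal cortex, rose in Paternal_0.3Cyp (0.37, edgeR adjusted p = 0.0230), Paternal_10Cyp (0.39, 0.0307) and Maternal_10Cyp (0.52, 0.00252). Nrp2, a semaphorin receptor, fell in Paternal_10Cyp (-0.40, 0.0140) and Maternal_10Cyp (-0.42, 0.00571). Of 20 other forebrain patterning genes, 6 rose and 1 fell in Paternal_0.3Cyp, the 6 above the 15.4% of all genes higher. In the next 4 groups 1, 2, 2 and 4 rose and 1 fell in each, shares near or below the background. In Both_10Cyp 0 were called. Pax6, a progenitor factor with high levels on the lateral side, rose in 5 groups by 0.31 to 0.46. The 3 other DMRT genes with enough counts, Dmrt2, Dmrtb1 and Dmrtc1a, were called in 0 of 6 groups by edgeR, where the lowest adjusted p was 0.278.

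**Figure D5:**
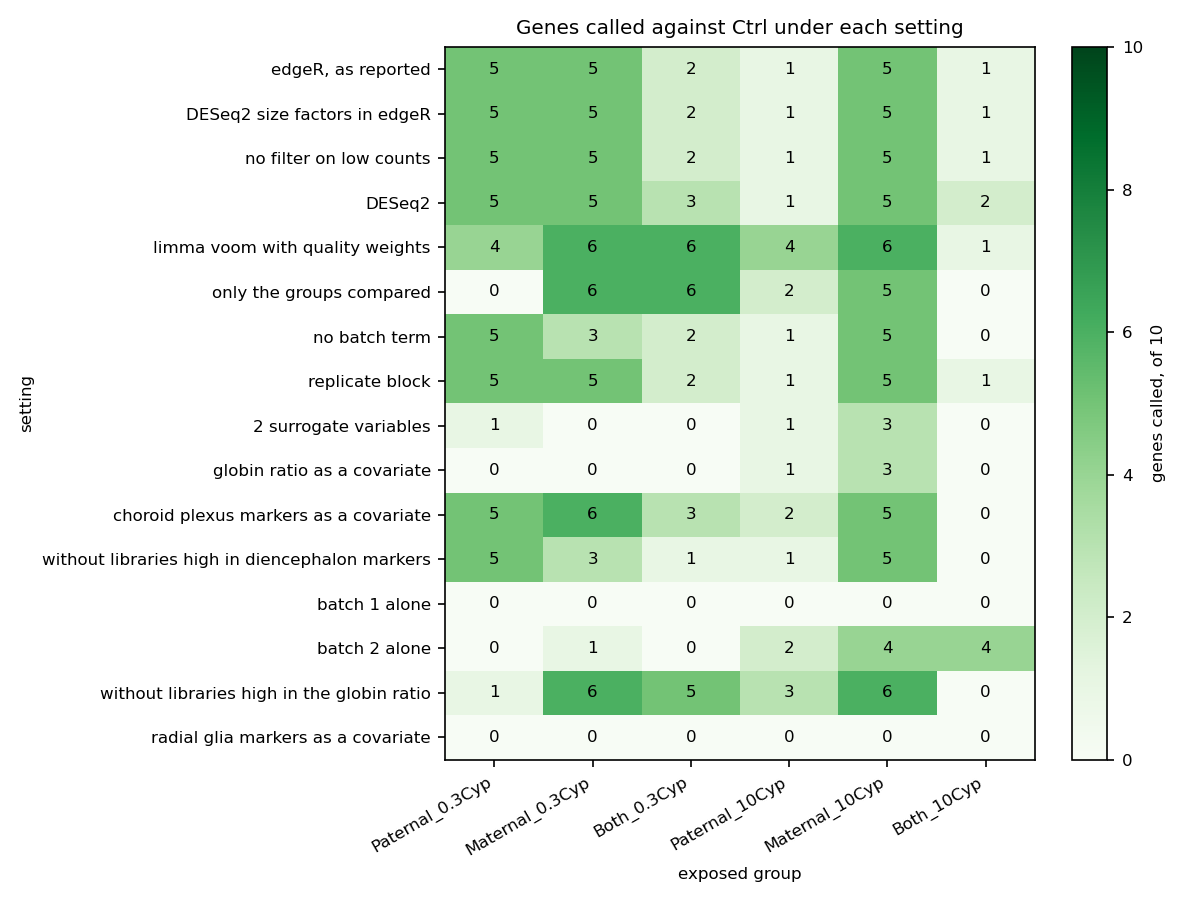
Number of the 10 genes called against Ctrl in each exposed group (columns) under each setting (lines), printed in the cell and coloured from 0 to 10. The counts as reported are 5, 5, 2, 1, 5 and 1, and the lines for batch 1 alone and for radial glia markers as a covariate hold 0 in all 6 groups.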

How the data were processed

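RNA of 76 libraries was sequenced, and the deposited table holds expected counts, estimated reads per gene that the authors made on mm10 with Salmon 1.10.1 after Trim Galore 0.5.0, per the submitters' processing notes. Its values are whole numbers, and each gene has at least 10 counts in at least 3 libraries. The annotation release, the summing to genes, the rounding and the use of strand are not given in the sources used here. Symbols and positions came from GENCODE M21 by gene ID (14810 of 14823 genes had a symbol), promoters from RefSeq.

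Samples were grouped by the labelled treatment. With edgeR 4.0.16 in R 4.3.3, filterByExpr kept 14339 genes and removed 484, libraries were scaled by TMM, and a robust quasi-likelihood model with group, batch and sex was fitted to all 76 libraries. P-values are 2-sided with Benjamini-Hochberg adjustment over 14339 genes, and a gene was called under 0.05. Normalised CPM divide counts by the library total (17.7 to 41.4 M counts before scaling) times its TMM factor. Correlations used residuals of log2 CPM, with 100000 permutations. Within-batch values came from 1 mean per group and batch.

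Of 210 pairs of libraries with the same replicate number, 58 had correlated deviations (r over 0.1). The median r was 0.0086, against -0.021 in other pairs of the same batch from different groups. Same-numbered pairs include pairs from different batches, so the 2 medians are not of like sets. The share with r over 0.1 was not counted in the other pairs. These values therefore do not decide whether libraries are paired by number. The main fit did not pair libraries by number. No 2 libraries were identical. Alternatives were no filter, DESeq2 size factors, DESeq2 1.42.0, limma 3.58.1 voom with quality weights, the compared groups alone, no batch term, a replicate block, 2 surrogate variables (sva 3.50.0), globin ratio (pseudocount 0.5) or choroid plexus covariates, either batch by itself, and leaving out each library or those high in diencephalon markers. Chosen after seeing the data were the radial glia covariate and leaving out libraries high in the globin ratio (3 median absolute deviations). All 10 genes were named, with 3 correlated genes for each called one, up to 4 genes per pathway list by joint p and per marker list by level; clone-named genes were not named, and 1 correlated gene is not reported here. The 10 genes and the lists were chosen with earlier results of these data known. On simulated data for Both_10Cyp against Ctrl (14339 genes), edgeR called 26, 39, 47 and 50 of 50 genes changed 1.25-, 1.5-, 2- and 3-fold, and 4 of 14139 unchanged ones. The simulated counts varied independently from gene to gene, with no batch, litter or composition differences between libraries. They therefore do not give the rate of false or missed calls in the real libraries.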

Additional observations from a re-analysis of the deposited data

Results flagged for a closer look

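In Maternal_10Cyp the lowest library of Wnt8b, replicate 1 with 0.803 normalised CPM, stood apart from the next lowest at 2.60. The gap was 0.557 of the group's range, above the critical value for 8 libraries. Only the dose 10 groups, of 8 or 10 libraries, were examined in this way. Of 30 pairs of group and gene among them 1 stood out, and chance gives about 1 in 20. Ctrl and the dose 0.3 groups, of 12 libraries each, were not examined. High values there, such as Wnt8b in Paternal_0.3Cyp replicate 4 (8.72), were therefore not tested as outliers.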

How the results depend on the processing

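Of the 19 differences from Ctrl that were called, 19 kept their call with DESeq2 size factors, with no filter on low counts and by DESeq2, 18 by limma and with the choroid plexus covariate, 16 without the batch term and 15 with diencephalon-high libraries left out. With the compared groups alone 13 kept it, without the libraries high in the globin ratio 14, in batch 2 alone 7, with 2 surrogate variables 5, with the globin ratio 4, and in batch 1 alone and with the radial glia covariate 0. Fewer libraries enter each batch alone; for the other settings the cause was not tested. The numbers of the 10 genes called are given in the order Paternal_0.3Cyp, Maternal_0.3Cyp, Both_0.3Cyp, Paternal_10Cyp, Maternal_10Cyp, Both_10Cyp, departure from the sum of effects at dose 10, and joint test. As reported they were 5, 5, 2, 1, 5, 1, 2 and 3. With 2 surrogate variables they were 1, 0, 0, 1, 3, 0, 1 and 1, with the globin ratio 0, 0, 0, 1, 3, 0, 1 and 0, in batch 2 alone 0, 1, 0, 2, 4, 4, 0 and 0. Batch 1 alone and the radial glia covariate gave 0 throughout. Without libraries high in the globin ratio they were 1, 6, 5, 3, 6, 0, 6 and 5. Limma gave 4, 6, 6, 4, 6, 1, 6 and 6, and 2 for the departure at dose 0.3 (0 as reported). DESeq2 gave 5, 5, 3, 1, 5, 2, 2 and 4, and the choroid plexus covariate 5, 6, 3, 2, 5, 0, 2 and 4. The compared groups alone gave 0, 6, 6, 2, 5, 0 and 2, with no joint test. Without the batch term the numbers were 5, 3, 2, 1, 5, 0, 2 and 1, and with diencephalon-high libraries left out 5, 3, 1, 1, 5, 0, 2 and 1.

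The replicate numbers were not used to pair libraries in the main fit. With them as a block the counts were as reported except 1 for the departure at dose 10 and 2 in the joint test, Dmrta1 in Maternal_0.3Cyp was called (0.74, edgeR adjusted p = 0.0474) and Prox1 there was not (-0.28, 0.0684). When each library was left out in turn, the counts ranged from 2 to 5 in Paternal_0.3Cyp, 3 to 6 in Maternal_0.3Cyp, 1 to 5 in Both_0.3Cyp, 1 to 4 in Paternal_10Cyp, 5 to 6 in Maternal_10Cyp and 0 to 4 in Both_10Cyp. They ranged from 0 to 3 for the departure at dose 0.3, 1 to 4 at dose 10 and 0 to 4 in the joint test. Leaving out libraries was not run for batch by exposure.

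Turned signs were all among log2 fold changes that were not called, except Dmrt3 in Paternal_0.3Cyp with the radial glia covariate (-0.013). That covariate also turned Prox1 in Paternal_0.3Cyp (0.12), Wnt8b in Both_0.3Cyp (-0.011) and Wnt3a, Wnt8b and Dmrt3 in Maternal_10Cyp (-0.047, -0.22 and -0.023). With 2 surrogate variables Prox1 in Paternal_0.3Cyp had 0.03, Wnt2b and Lmx1a in Maternal_0.3Cyp -0.037 and 0.097, Lmx1a in Paternal_10Cyp 0.066 and Wnt8b in Maternal_10Cyp -0.16. With the globin ratio Wnt2b had -0.024 in Maternal_0.3Cyp and -0.0064 in Paternal_10Cyp, Wnt8b -0.14 in Maternal_10Cyp and Lmx1a -0.00022 in Both_10Cyp. Lmx1a in Both_10Cyp had -0.23 with the choroid plexus covariate and -0.069 without libraries high in the globin ratio. By limma Lmx1a had -0.064 in Paternal_0.3Cyp and 0.08 in Maternal_0.3Cyp, and Wnt2b 0.016 in Maternal_10Cyp. Lmx1a in Maternal_0.3Cyp had 0.017 without the batch term and 0.19 without libraries high in diencephalon markers, and 0.12 in Paternal_10Cyp. Wnt2b in Paternal_10Cyp had -0.037 with the compared groups alone. Batch 1 alone gave Wnt2b and Wnt8b in Paternal_10Cyp -0.23 and -0.031, Wnt8b in Maternal_10Cyp -0.17 and Zbtb20 in Both_10Cyp 0.026. Batch 2 alone gave Wnt2b -0.002 in Paternal_0.3Cyp and 0.1 in Maternal_10Cyp, and Lmx1a 0.1 in Maternal_0.3Cyp and 0.044 in Paternal_10Cyp. With 1 library left out Wnt2b ranged from -0.012 to 0.089 in Maternal_0.3Cyp, -0.03 to 0.11 in Paternal_10Cyp and -0.13 to 0.014 in Maternal_10Cyp. Lmx1a then ranged from -0.083 to 0.2 in Maternal_0.3Cyp, -0.14 to 0.18 in Paternal_10Cyp and -0.31 to 0.035 in Maternal_10Cyp.

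Among the 10 genes, depth limits Wnt3a, Dmrta1 and Lmx1a most, whose levels rest on few counts. Litter, the unit of the dose and cell composition are not labelled.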
